A study of Mus musculus with 6 samples.

Results

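Pyruvate entry into the mitochondrion was followed through 10 genes: the pyruvate dehydrogenase kinases Pdk1, Pdk2, Pdk3 and Pdk4, the phosphatases Pdp1 and Pdp2, the E1 subunits Pdha1 and Pdhb, and the pyruvate carrier subunits Mpc1 and Mpc2. The members were taken by gene symbol, and all 10 were present among the 18181 genes of the table and among the 11860 tested genes (mean over the libraries of 1 FPKM or more). Messenger RNA came from heart ventricle of C57BL6 mice, with no other genotype or treatment given, at 6 to 8 weeks (young, called adult in the extraction protocol, 3 libraries) or 24 to 26 months (aged, 3 libraries). FPKM divide the fragments of a gene by transcript length and sequencing depth, so levels can be set beside each other between genes. It is not stated whether each sample was 1 mouse or a pool, so p-values measure the spread between these samples, which may be technical.

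Pyruvate made by glycolysis or from lactate crosses the inner mitochondrial membrane through a carrier built of the MPC1 and MPC2 proteins. The pyruvate dehydrogenase complex then turns it into acetyl-CoA, the fuel of the citric acid cycle. The E1 part of the complex, made of PDHA1 and PDHB, is switched off when a PDK kinase phosphorylates PDHA1 and switched on again when a PDP phosphatase removes the phosphate. In heart muscle, which burns mainly fatty acids, PDK2 and PDK4 are known as the main kinases, and PDK4 as the one that rises with fasting and fatty acid supply. Messenger RNA does not show phosphorylation or flux.

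Aged ventricle had more transcript of Pdk1, Pdk2, Pdp1 and Mpc1 and less of Pdk3 and Pdk4 than young ventricle. Of the 10 members 4 were higher and 2 lower at an adjusted p under 0.05 (limma on log2(FPKM + 1), adjusted over all genes), where 9.32% of all tested genes were called higher and 17.1% lower. The 3 aged libraries lay wholly above the 3 young ones for 5 members and wholly below for 3, and over all tested genes this held for 15.2% and 27.9%. The median log2 difference of the members was 0.15 against -0.06 over the whole tested set. Without aged replicates 1 and 2 the log2 differences were 0.65 for Pdk1, 0.42 for Pdk2, 0.12 for Pdp1 and 0.33 for Mpc1. They were -0.39 for Pdk3 and -0.70 for Pdk4. An adjusted p of this fit assumes that the lone aged library varied like the others, and fewer genes were called in it over the whole tested set.

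The libraries differed in ways that touch these values. Low values that stand for equal numbers of reads gave depths relative to young replicate 1 of 0.97 and 1.12 for the other young libraries and 1.06, 0.96 and 0.83 for aged replicates 1 to 3; the depth itself is unknown. Transcripts of 9 stratified epithelium markers summed to 278 and 451 FPKM in aged replicates 1 and 2 and to between 0.97 and 1.74 in the other 4 libraries. The 11 cardiomyocyte markers summed to between 51939 and 56265 FPKM in young and 59630 and 62941 in aged, with 3 of 11 called higher, and the labelled tissue carried them in every library. Of 10 endothelial markers 7 were lower and 0 higher, their sum running from 1423 to 1919 FPKM in young and from 1205 to 1324 in aged. Of 8 smooth muscle and pericyte markers 4 were lower and 0 higher, with sums of 878 to 976 in young and 353 to 396 in aged. Of 8 fibroblast markers 5 were lower and 0 higher, with overlapping sums. Among the 9 skeletal muscle markers the sums were 35.7 to 41.5 in young and 6.51 to 13.5 in aged, with Casq1 of the sarcoplasmic reticulum at 34.3, 36.6 and 29.1 FPKM in young libraries against 1.93, 2.02 and 1.78. The other 8 skeletal muscle markers did not follow Casq1, with sums of 6.39, 4.92 and 6.66 in young and 9.59, 11.52 and 4.73 in aged libraries. The smooth muscle actin gene Acta2 had 637, 470 and 523 FPKM in young libraries against 40.4, 73.6 and 66.4 in aged. Acta2 alone made up most of the drop in the smooth muscle and pericyte sum. The keratin gene Krt13 had 152 and 250.3 FPKM in aged replicates 1 and 2 and was listed at 0 elsewhere. Leukocyte, adipocyte and atrial marker sums overlapped between ages, and Adipoq, an adipocyte hormone, was at 0.09 FPKM or less in every library. In bulk RNA, fewer cells of a type and less RNA per cell cannot be told apart. The part that these shifts have in the results was not tested, beyond the values relative to cardiomyocyte markers given below.

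**Figure D1:**
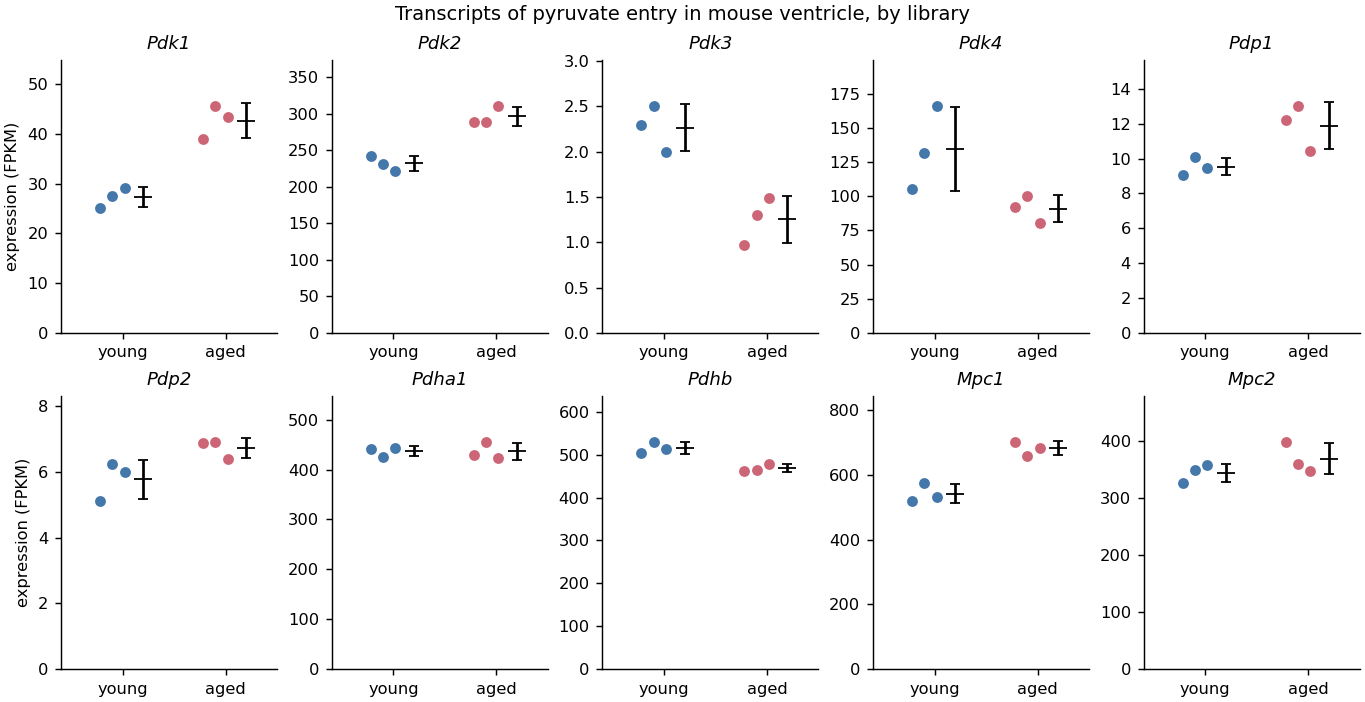
Expression in FPKM (linear axis from 0) of each member in the 3 young (blue) and 3 aged (red) libraries, with the mean and SD of each age (bars, n = 3). Pdk1, Pdk2, Pdp1, Pdp2 and Mpc1 lay higher in all aged libraries, Pdk3, Pdk4 and Pdhb lower, and Pdha1 and Mpc2 overlapped.

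The order of levels was the same at both ages. Mpc1 was highest (542 FPKM in young, 682 in aged), followed by Pdhb (516 and 468), Pdha1 (437 and 436), Mpc2 (344 and 368) and Pdk2 (232 and 297). Pdk4 (134 and 90.8), Pdk1 (27.2 and 42.6), Pdp1 (9.54 and 11.9), Pdp2 (5.77 and 6.73) and Pdk3 (2.27 and 1.25) came after them. Neighbours in this order did not overlap within an age, except Mpc1 and Pdhb in young ventricle, whose ranges were 518 to 575 and 504 to 531. The kinase Pdk2 thus had more transcript per length than the other kinases in every library, while the phosphatases stood far below the subunits they act on.

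Pdk2, the kinase most widely expressed across tissues, had 242, 232 and 222 FPKM in young ventricle and 289.2, 289.4 and 311 in aged ventricle (replicates 1 to 3 in that order, here and for each gene). Every aged library lay above every young one. The mean rose 1.28-fold (232 ± 9.98 to 297 ± 12.7 FPKM, SD, n = 3) or by 0.35 on the log2 scale (SE 0.0589, limma adjusted p = 0.00348). Pdk2 lies on chromosome 11 (95026258 to 95041371, GRCm38). Of the 19 alternative settings, 18 kept the call, those that leave out libraries among them; scaled to the summed cardiomyocyte markers the log2 difference was 0.17 (adjusted p = 0.0662).

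Pdk1, a kinase known as a target of the hypoxia-inducible factor HIF1, had 25.1, 27.5 and 29.2 FPKM in young ventricle and 38.9, 45.7 and 43.4 in aged ventricle. No aged library reached down to the young range. Pdk1 rose 1.56-fold (27.2 ± 2.05 to 42.6 ± 3.46 FPKM; log2 0.63, SE 0.0813, adjusted p = 0.00108), the largest difference among the members called higher. It was called under each of the 19 alternatives, with log2 differences from 0.45 to 0.69. The gene lies on chromosome 2 (71873215 to 71903858).

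Pdk4, the kinase induced in fasting, had 105, 131 and 166 FPKM in young ventricle and 91.8, 100.05 and 80.7 in aged ventricle. There was no overlap, but the gap between the lowest young and the highest aged library was small, and the young libraries were spread more widely than the aged. Pdk4 fell 1.48-fold (134 ± 30.7 to 90.8 ± 9.72 FPKM; log2 -0.54, SE 0.149, adjusted p = 0.0279). The call was lost without young replicate 2 (adjusted p = 0.0702) or 3 (0.0737), and without aged replicate 1 (0.0690) or 3 (0.0740). It was also lost with no filter on low values (0.0687) and with robust empirical Bayes (0.0568). The log2 difference was -0.37 without young replicate 3, the library with the highest Pdk4, and -0.70 without young replicate 1. It was again -0.70 without aged replicates 1 and 2 together, with an adjusted p of 0.0944. Pdk4 lies on chromosome 6 (5483351 to 5496278).

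Pdk3, a kinase best known from testis, kidney and brain, had 2.29, 2.51 and 2 FPKM in young ventricle and 0.97, 1.3 and 1.49 in aged ventricle. All aged values were below all young ones. The gene fell 1.81-fold (2.27 ± 0.256 to 1.25 ± 0.263 FPKM; log2 -0.54, SE 0.132, adjusted p = 0.0168), a scale that understates the change of so low a gene. Without young replicate 2 the adjusted p was 0.0671, and without aged replicate 1 it was 0.0574, and without aged replicates 1 and 2 together it was 0.190. Pdk3 lies on chromosome X (93764616 to 93832150).

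**Figure D2:**
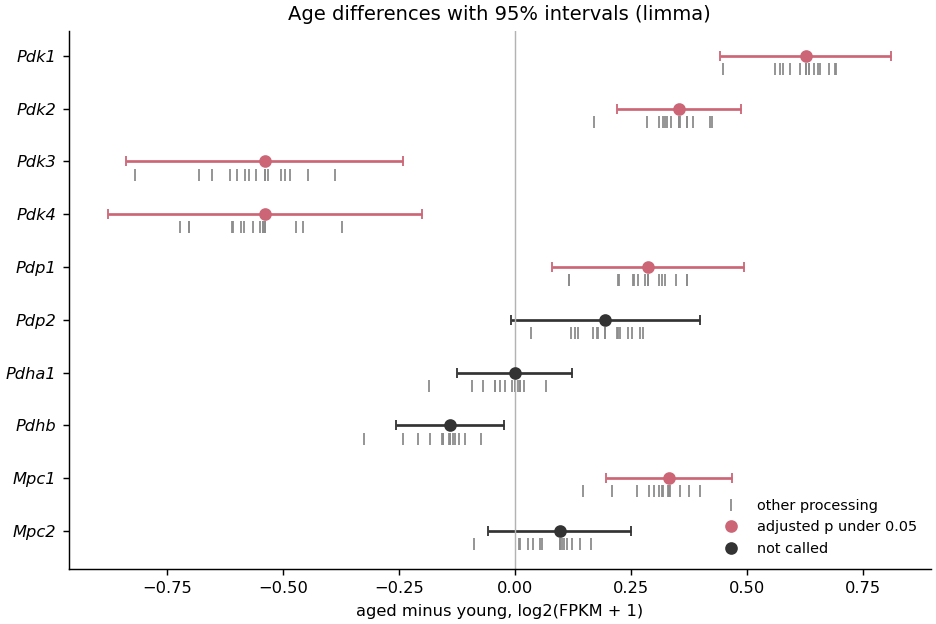
Aged minus young difference in log2(FPKM + 1) of each member with its 95% interval (limma, n = 3 and 3), in red where the adjusted p was under 0.05. Grey ticks are the same difference under other processing; Pdk1 and Pdk2 stayed above 0 and Pdk3 and Pdk4 below 0 under each alternative run, while Pdha1 stood on both sides.

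The make-up of the kinase transcripts is given as each kinase's share of their sum. The 4 kinases together had 375, 393 and 420 FPKM in young ventricle and 421, 436 and 437 in aged ventricle, ranges that nearly touch. Of this sum Pdk4 made up 28.1%, 33.4% and 39.6% at the young age and 21.8%, 22.9% and 18.5% at the aged. Pdk2 made up 64.6%, 58.9% and 52.9% in young and 68.7%, 66.3% and 71.3% in aged. Pdk1 made up 6.88 ± 0.157% in young and 9.88 ± 0.616% in aged (SD, n = 3). Pdk3 was under 1% of the sum in every library. These shares are descriptions of transcript make-up within a library, with no test.

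**Figure D3:**
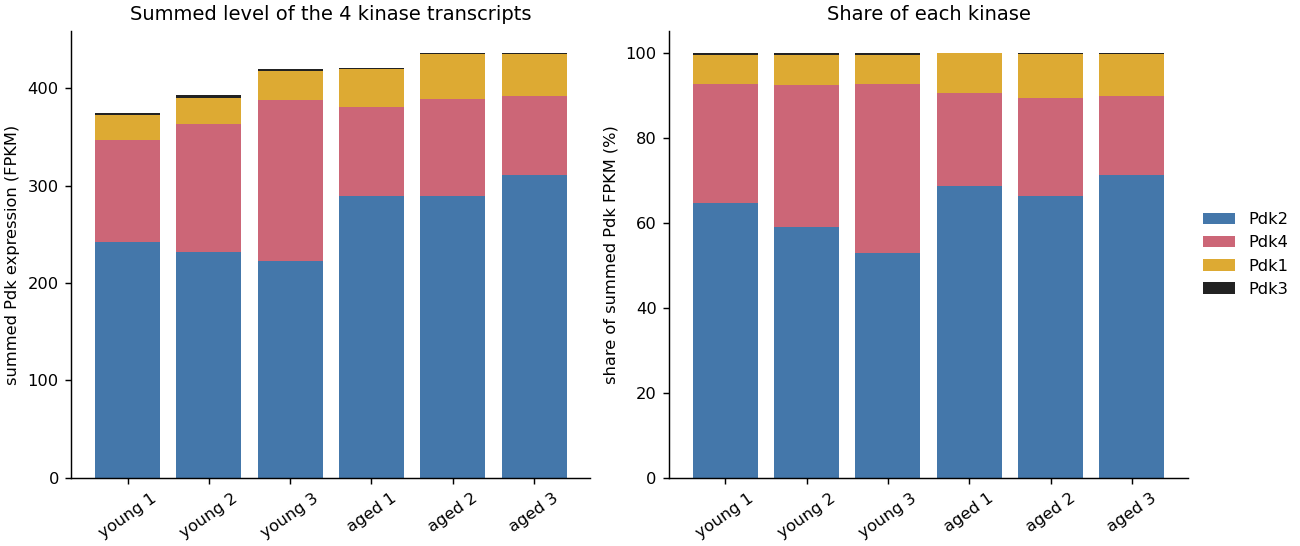
Left, summed FPKM of Pdk1 to Pdk4 in each library, stacked by gene; right, the share of each kinase in that sum (%). Pdk4 held 28.1% to 39.6% of the sum at the young age and 18.5% to 22.9% at the aged.

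Ratios between members do not depend on how a library was scaled. The ratio of Pdk4 to Pdk1 was 4.19, 4.79 and 5.701 in young and 2.36, 2.19 and 1.86 in aged ventricle. The ratio of Pdk4 to Pdk2 was 0.434, 0.567 and 0.749 in young and 0.317, 0.346 and 0.259 in aged. Both ratios were lower in every aged library, which follows from Pdk4 lying lower and Pdk1 and Pdk2 higher in each of them. Pdk2 stood at 0.532 ± 0.0272 of its substrate subunit Pdha1 in young and 0.681 ± 0.0506 in aged (SD, n = 3), with no overlap. The sum of the kinases was 26.4, 24.1 and 27.2 times that of the phosphatases in young and 22.02, 21.9 and 26.004 times in aged, which overlapped.

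**Figure D4:**
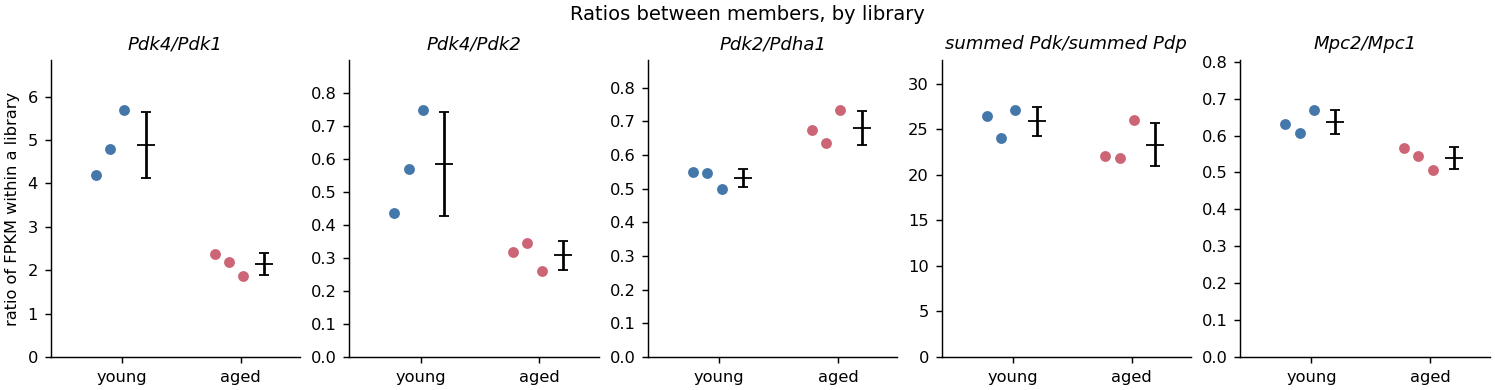
Ratio of FPKM within a library for pairs of members (Pdk and Pdp sums in the fourth panel), in 3 young (blue) and 3 aged (red) libraries with mean and SD (n = 3), axes from 0. Pdk4 to Pdk1, Pdk4 to Pdk2 and Mpc2 to Mpc1 were lower and Pdk2 to Pdha1 higher in each aged library, and the kinase to phosphatase ratio overlapped.

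The stretches before the annotated starts of the 4 kinase genes are shown because these paralogues moved in opposite directions. Each is the 250 bases upstream of the start on the gene's strand, 5′ to 3′, from RefSeq on GRCm38.p6: chr2:71872974-71873223 (plus strand) for Pdk1, chr11:95041372-95041621 (minus) for Pdk2, chrX:93832151-93832400 (minus) for Pdk3 and chr6:5496279-5496528 (minus) for Pdk4. Pdk1 and Pdk2 have 2 annotated starts, and the outer one is shown. For Pdk1 this start (71873224) lies inside the gene, which begins at 71873215, so the last bases of its window are within the gene. Capitals mark matches on either strand to the letters searched, which were AGGTCA for the nuclear receptor half-site, GTAAACA for the FoxO core and CACGTG for the E-box. The others were ACGTG for a first hypoxia-inducible factor core, which overlaps the E-box, GCGTG for another such core, TATAAA for the TATA box, CCAAT for the CCAAT box and finally GGGCGG for the GC box.
Pdk1: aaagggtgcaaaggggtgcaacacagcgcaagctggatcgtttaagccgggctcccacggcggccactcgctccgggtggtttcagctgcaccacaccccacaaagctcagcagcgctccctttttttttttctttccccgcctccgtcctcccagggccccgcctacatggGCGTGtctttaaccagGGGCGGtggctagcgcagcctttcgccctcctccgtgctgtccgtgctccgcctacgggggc
Pdk2: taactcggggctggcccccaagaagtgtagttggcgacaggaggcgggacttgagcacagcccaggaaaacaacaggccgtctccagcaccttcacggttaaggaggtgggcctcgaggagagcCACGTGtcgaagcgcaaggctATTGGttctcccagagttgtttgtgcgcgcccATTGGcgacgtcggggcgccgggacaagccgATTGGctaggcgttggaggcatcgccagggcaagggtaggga
Pdk3: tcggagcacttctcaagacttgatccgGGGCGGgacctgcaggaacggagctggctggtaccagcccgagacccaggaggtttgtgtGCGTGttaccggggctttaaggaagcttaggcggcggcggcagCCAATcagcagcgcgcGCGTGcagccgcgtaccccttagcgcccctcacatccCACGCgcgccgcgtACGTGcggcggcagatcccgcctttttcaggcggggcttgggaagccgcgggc
Pdk4: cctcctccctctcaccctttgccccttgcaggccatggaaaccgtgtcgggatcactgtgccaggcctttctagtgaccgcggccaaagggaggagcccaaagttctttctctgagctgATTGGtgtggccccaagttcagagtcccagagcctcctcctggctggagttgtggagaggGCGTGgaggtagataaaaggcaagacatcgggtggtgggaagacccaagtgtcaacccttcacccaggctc
The Pdk2 window held 1 E-box, at 126 bases before the start, with an ACGTG core on each strand inside it, and 3 CCAAT boxes, all in reverse. An E-box was present in 6.02% and CCAAT in 33.9% of the 32851 windows of this length in the RefSeq table. The Pdk1 window held 1 GCGTG core (28.2% of windows) and 1 GC box (32.7%). The Pdk4 window held 1 GCGTG core and 1 CCAAT box, and had 6 CpG steps against 19 in Pdk1, 19 in Pdk2 and 29 in Pdk3. The Pdk3 window held 3 GCGTG cores, 1 ACGTG core (16.6%), 1 CCAAT box and 1 GC box. The nuclear receptor half-site (14.0% of windows), the FoxO core (3.17%) and the TATA box (12.4%) had no match in these 4 windows. A match is not a site, and these letters missing from so short a window say nothing of the factors. The windows of Pdk1 to Pdk4 had 64.0%, 62.4%, 67.6% and 58.8% GC, against a median of 52.4% over all windows. The shares of windows given here were not matched for GC.

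The phosphatases are the counterpart of the kinases. Pdp1, the calcium-stimulated phosphatase of muscle (chromosome 4, 11958183 to 11966450), had 9.08, 10.09 and 9.46 FPKM in young ventricle and 12.2, 13.04 and 10.4 in aged ventricle, with no overlap and with aged replicate 3 close to the young range. It rose 1.25-fold (9.54 ± 0.510 to 11.9 ± 1.35 FPKM; log2 0.29, SE 0.0914), and its adjusted p of 0.0479 stood at the threshold. That call was kept under 7 of 19 alternatives and in 1 of the fits that leave out a library, the one without aged replicate 3. Without young replicates 1, 2 and 3 in turn the adjusted p was 0.114, 0.0711 and 0.129, and without aged replicates 1 and 2 in turn it was 0.132 and 0.134. It was 0.540 (log2 0.12) without aged replicates 1 and 2 together, and with the replicate number as a block 0.0514.

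Pdp2, the calcium-insensitive phosphatase, had 5.1, 6.23 and 5.99 FPKM in young ventricle and 6.89, 6.92 and 6.39 in aged ventricle. Its ages did not overlap, but it was not called (log2 0.19, SE 0.0900, adjusted p = 0.146; 95% interval -0.0098 to 0.40). With quantile normalization its adjusted p was 0.0373, the only call among the 19 alternatives.

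The E1 subunits had no called difference. Pdha1, which carries the phosphorylated serines, had 441, 425 and 444 FPKM in young ventricle and 429.6, 456 and 424 in aged ventricle, and the ages overlapped fully. Its means were 437 ± 10.4 and 436 ± 17.3 FPKM (SD, n = 3; log2 -0.0012, SE 0.0548, adjusted p = 0.989), and the 95% interval of the difference ran from -0.13 to 0.12. The sign of this difference turned with the scaling and with the library left out. Pdhb, the beta subunit, had 504, 531 and 514 FPKM in young ventricle and 462, 464 and 479 in aged ventricle, lower in every aged library. It was not called (516 ± 13.4 to 468 ± 9.07 FPKM; log2 -0.14, SE 0.0518, adjusted p = 0.0762). The adjusted p was 0.0252 on TPM, 0.00950 with quantile normalization and 0.0422 after removal of length and GC trends. With median-of-ratios scaling it was 0.361 (log2 -0.073), and in all 4 of the 19 alternatives called Pdhb.

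Of the carrier subunits Mpc1 rose and Mpc2 was not called; the difference between them was not tested. Mpc1 (chromosome 17, 8283787 to 8297667) had 518, 575 and 532 FPKM in young ventricle and 703, 659 and 683 in aged ventricle, with all aged libraries above all young ones. It rose 1.26-fold (542 ± 29.8 to 682 ± 21.6 FPKM; log2 0.33, SE 0.0602, adjusted p = 0.00491) and stayed called in each fit that left out 1 library; without aged replicates 1 and 2 together the log2 difference was 0.33 with an adjusted p of 0.0582. Mpc2 had 326, 348 and 357 FPKM in young ventricle and 398, 359.6 and 346 in aged ventricle, with overlap, and was not called (log2 0.096, SE 0.0681, adjusted p = 0.334; 95% interval -0.058 to 0.25). The ratio of Mpc2 to Mpc1 was 0.63, 0.606 and 0.6703 in young and 0.567, 0.545 and 0.507 in aged, lower in every aged library. The carrier protein is a heterodimer of both subunits, and its amount was not measured.

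Set against the summed cardiomyocyte markers, a scaling chosen after the data had been seen that lowers the median of the tested genes to -0.22 (log2), fewer members were higher. Per 1000 FPKM of these markers, Pdk1 had 0.446, 0.521 and 0.562 FPKM in young ventricle and 0.617, 0.759 and 0.727 in aged ventricle, and it alone stayed higher (log2 0.45, adjusted p = 0.00911). Pdk4 stood at 2.52 ± 0.667 and 1.49 ± 0.157 (SD, n = 3), again lower (log2 -0.72, adjusted p = 0.00742). Mpc1 had 9.202, 10.9 and 10.2 in the young and 11.2, 10.95 and 11.4 in the aged, and was not called (adjusted p = 0.125). Pdk3 (-0.65), Pdhb (-0.32) and Pdha1 (-0.19) were called lower on this scale, with adjusted p of 0.00615, 0.00579 and 0.0478. Pdp1 was not called (log2 0.12, adjusted p = 0.367). Among these markers Myl2, a ventricular myosin light chain, rose from 12216, 11887 and 11180 FPKM in young to 18357, 16517 and 16310 in aged. Tnnt2 (log2 0.32, adjusted p = 0.00794) and Tnni3 (0.24, adjusted p = 0.0258) were the other called markers, both higher. The large markers Actc1 and Myh6, of the thin and thick filaments, had -0.14 and -0.12 (log2, not called). The other 10 markers without Myl2 summed to 44049, 40773 and 40760 FPKM in young and 44584, 43691 and 43320 in aged libraries, which overlap. Scaled to these 10, with a median of -0.12 over the tested genes, Pdk1 (0.56), Pdk2 (0.29) and Mpc1 (0.26) were called higher, with adjusted p of 0.00476, 0.0124 and 0.0315. Pdk3 and Pdk4 were called lower (-0.58 and -0.61), and Pdp1 was not called (0.22, adjusted p = 0.134). Pdha1 (-0.07, adjusted p = 0.460) and Pdhb (-0.21, adjusted p = 0.0519) were not called on this scale, Pdhb just above the threshold. The calls of Pdk2, Mpc1, Pdhb and Pdha1 thus differed between the sums with and without Myl2.

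The counts of each list below stand beside 9.32% higher and 17.1% lower over all tested genes, and several lie near these shares. Of 4 other tested genes of the complex 1 was higher and 0 lower, with a median log2 difference of -0.02. The higher gene was Pdpr, the regulatory subunit of the phosphatase, at 18.3, 17.7 and 18.5 FPKM in young and 25.5, 26.3 and 22.7 in aged (log2 0.43, SE 0.0719, adjusted p = 0.00357). The E2 gene Dlat was at 139 ± 2.06 and 130 ± 3.61 FPKM and the E3-binding protein gene Pdhx at 72.7 ± 1.12 and 66.8 ± 0.876. The E3 gene Dld was at 209 ± 7.04 and 220.4 ± 6.79, and none of these 3 was called. Dlat and Pdhx lay lower in every aged library, as did 27.9% of all tested genes, and Dld overlapped. Without aged replicates 1 and 2 the median of the 4 was -0.01, against -0.08 over all tested genes. Pdha2, the testis form of the alpha subunit, was at 0.04 FPKM in aged replicate 1 and listed at 0 in the other libraries. In the list of lipoate attachment and iron-sulfur supply, which arms the E2 subunit, 2 of 9 genes were higher and 0 lower (median 0.15). They were the lipoate transferase Lipt1 (5.28 ± 0.121 to 6.58 ± 0.623) and the iron-sulfur factor Bola3 (202 ± 7.81 to 241 ± 24.9), with adjusted p of 0.048 and 0.0489, and these calls held in 6 and 7 of 19 alternatives.

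Upstream of the carrier, 3 of 10 tested genes of pyruvate and lactate supply were higher and 0 lower, with a median log2 difference of 0.15. Ldhb, the lactate dehydrogenase subunit of heart, had 1229, 1231 and 1175 FPKM in young ventricle and 1628, 1557 and 1548 in aged ventricle (log2 0.38, SE 0.0547, adjusted p = 0.00171). Bsg, the chaperone of the lactate and pyruvate transporters of the plasma membrane, rose 1.32-fold, and Ldhd, which uses D-lactate, rose 1.56-fold (log2 0.40 and 0.61). Pyruvate kinase Pkm (716 ± 8.85 and 763 ± 27.9 FPKM) and the muscle-type subunit gene Ldha (563 ± 13.2 and 519 ± 29.3) were not called. Downstream, 4 of 11 genes of other fates of pyruvate and acetyl-CoA were higher and 2 lower (median 0.20). Pcx, pyruvate carboxylase, which feeds pyruvate to oxaloacetate, rose from 6.52, 6.1 and 6.14 FPKM to 10.4, 9.83 and 11.3 (log2 0.66, SE 0.0786, adjusted p = 0.000652). Mlycd, which removes malonyl-CoA, rose 1.36-fold and the acetyl-CoA synthetase Acss1 1.18-fold, and Acacb, a maker of malonyl-CoA, was the other higher gene. Cs, citrate synthase, fell from 719 ± 22.5 to 622 ± 19.0 FPKM (log2 -0.21, adjusted p = 0.0225), and Acly, which splits citrate, was the other lower gene; the calls of Cs and Acly each held in 11 of 19 alternatives and that of Acacb in 8. The list had 2 higher and 0 lower without young replicate 3, and 3 and 0 without aged replicate 3. Without aged replicates 1 and 2 its median was 0.17.

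The branched-chain keto acid dehydrogenase is built like the pyruvate complex and has its own kinase. Of its 5 genes listed 3 were higher and 0 lower, with a median log2 difference of 0.29. Bckdk, the kinase, had 37.9, 35.5 and 36.1 FPKM in young ventricle and 54.2, 49 and 47.7 in aged ventricle, 1.38-fold higher (log2 0.45, SE 0.0670, adjusted p = 0.00202). The E1 subunit genes Bckdha and Bckdhb rose 1.73-fold and 1.23-fold (log2 0.78 and 0.29).

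Pdk4 is known as a target of PPAR and ERR nuclear receptors. Of 16 regulators 3 were higher and 1 lower (median 0.09), beside 9.32% and 17.1% of all tested genes. The nuclear receptors Pparg (log2 0.47), Esrrb (0.53) and Esrrg (0.47) rose and Hif1a fell (-0.22, adjusted p = 0.0408). The Hif1a call held in 9 of 19 alternatives and was lost without young replicate 1 (adjusted p = 0.0907), 2 (0.0870) or 3 (0.109) and without aged replicate 2 (0.0875) or 3 (0.114). Ppara, the fatty acid sensing receptor of heart muscle, was at 15.3 ± 1.98 and 16.7 ± 1.51 FPKM and was not called. Of 20 other targets of the PPAR receptors, many of them enzymes of fatty acid oxidation, 10 were higher and 1 lower, with a median log2 difference of 0.26. Among them Ech1 (log2 0.76), Acadm (0.52) and Cpt1b (0.41) rose and the uncoupling protein gene Ucp2 fell (-1.04). Angptl4, a secreted lipase inhibitor strongly induced through PPAR, had 2.87, 12.8 and 11.2 FPKM in young ventricle and 4.96, 2.22 and 3.03 in aged ventricle, and was not called (log2 -1.02, adjusted p = 0.117). Its overlap came from young replicate 1, without which the log2 difference was -1.60 (adjusted p = 0.00249) and the list had 9 higher and 2 lower. Without aged replicates 1 and 2 the median of the PPAR target list was 0.19, against -0.08 over all tested genes.

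Of 13 other genes known as targets of the glucocorticoid receptor or of FoxO factors, both activators of Pdk4, 0 were higher and 6 lower, and the median log2 difference was -0.30; no other gene of the list passed an unadjusted p under 0.05. Per1, a clock gene that glucocorticoids induce, had 18.6, 21.7 and 23.2 FPKM in young ventricle and 5.89, 7.99 and 6.85 in aged ventricle (log2 -1.49, SE 0.114, adjusted p = 7.01e-05). Tsc22d3, which encodes the glucocorticoid-induced leucine zipper, had 52.05, 46.7 and 59.3 FPKM when young and 24.6, 28.8 and 23.9 when aged (2.04-fold lower, adjusted p = 0.000284). Cdkn1a (log2 -0.85) and the kinase Sgk1 (-0.37) also fell. The other 7 were not called, among them Fkbp5 (0.11) and Mt1 (0.08), which glucocorticoids are known to induce. Without aged replicates 1 and 2 the median of this list was -0.26.

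**Figure D5:**
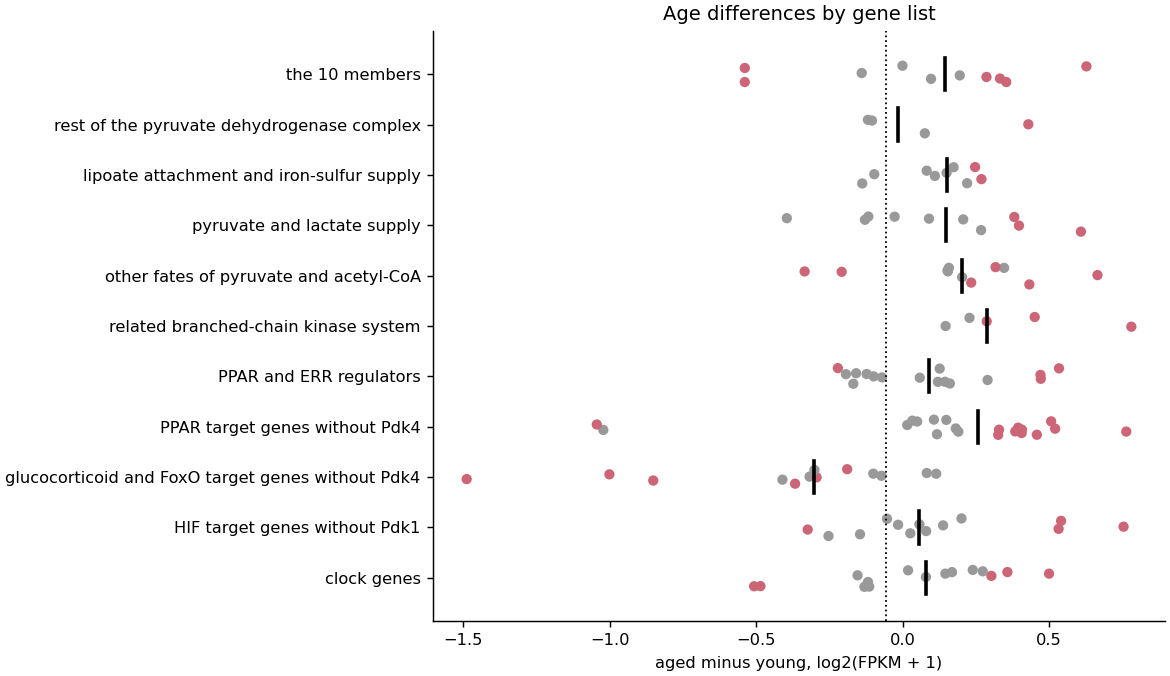
Aged minus young difference in log2(FPKM + 1) of each tested gene by list (red, adjusted p under 0.05; grey, not called), with the median of each list (bar) and of all tested genes, -0.06 (dotted line). PPAR targets lay mostly above 0 (median 0.26) and glucocorticoid and FoxO targets mostly below (median -0.30).

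The profiles nearest to each kinase over the 6 libraries were sought among 7902 tested genes averaging 5 FPKM or more (members and numbered gene models such as Gm and Rik entries left out), by the root mean square difference of centred log2(FPKM + 1) values. Pdk2 lay nearest to Coq10a, Tmem8b and Nudt13, at 0.0114, 0.0244 and 0.0278. Coq10a, a coenzyme Q binding protein, had means of 162 ± 6.94 (young) and 208 ± 8.57 FPKM (aged) (SD, n = 3). Pdk1 lay nearest to Myo5b, Gmnn and Gcat (0.0454 to 0.0561), and Pdk3 to Nos2, Resf1 and Arl4c (0.0396 to 0.0663). This scale understates the change of so low a gene as Pdk3, and its neighbours changed by smaller folds (Nos2 from 7.72 to 5.19 FPKM). The root mean square of each kinase's own centred values was 0.33, 0.18, 0.29 and 0.34 for Pdk1 to Pdk4. For Pdk4 the nearest of these candidates were farther: Wnk4, Plekhf1 and Mfsd14b stood at 0.0904 to 0.0982.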

How the data were processed

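Poly(A) RNA of heart ventricle was sequenced as paired reads, per the labels' protocols. The authors deposited FPKM to 2 decimals, 1 column per library, per the file headers. RSEM 1.2.12, HISAT2 2.0.4, DESeq2 1.4.5 and Bowtie2 2.2.5, with build mm10, are named in the submitters' processing notes, without roles; the annotation is not given in the sources used here, and no strand marking is stated, so overlapping genes are not told apart. Relative depth was read from low values at equal read numbers. Genes averaging 1 FPKM or more were compared (aged minus young) by limma 3.58.1, R 4.3.3 (trended variance, log2(FPKM + 1) scale), two-sided and Benjamini-Hochberg adjusted over all genes; a call is an adjusted p under 0.05. An exact permutation test of 3 against 3 cannot go below 0.1. The log scale understates changes of low genes, and folds are ratios of mean FPKM. Of these steps the limma fit was tested on simulated data.

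The members and lists were chosen with earlier results of these data known. Named list genes are up to 4 called genes of each list with the largest statistic; markers, uncalled genes, Acly and Acacb were chosen after their values were seen. Of the 10 pathway lists, those of hypoxia-inducible factor targets and clock genes are in the closing section. Transcript length and GC came from GENCODE vM21 for 99.0% of tested genes. They are medians over all annotated transcripts of a gene, with partial ones not left out. The length was 573 bases for Pdk4 and 644 for Pdhb. Coordinates, and promoter windows for 9 of the 10 members, came from RefSeq GRCm38.p6, the assembly called mm10. Alternatives are given in the closing section.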

Additional observations from a re-analysis of the deposited data

How the results depend on the processing

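Of 1105 genes higher and 2026 lower, 19 alternatives gave the following. Leaving out 1 library gave 718 to 1020 higher and 1164 to 1958 lower genes over all, and among the members 3 to 4 higher and 0 to 2 lower. The lower members were 0 without young replicate 2 or aged replicate 1, and 1 without young replicate 3 or aged replicate 3. Without aged replicates 1 and 2 there were 420 higher and 552 lower genes, with 2 members higher and 0 lower. Each of 3 settings, no expression filter, a mean of 5 FPKM or more (Pdk3 then untested) and robust empirical Bayes, left 1 member lower. Scaling to the summed cardiomyocyte markers, chosen after seeing the data, gave 562 higher and 4596 lower genes, and 1 member higher and 4 lower; the same without Myl2 gave 730 and 2398 genes and 3 and 2 members. The split of the calls moved with scaling: TPM gave 977 higher and 2489 lower, median-of-ratios scaling 1484 and 1506, and quantile normalization 1316 and 1500, with gene medians (log2) of -0.10, -0.00071 and -0.0048 against -0.06. Pdha1, near 0, turned positive with median-of-ratios scaling (0.066) and in 4 of the fits that leave out a library, which ranged from -0.033 to 0.020 (0.0059 and 0.011 without young replicates 1 and 3, 0.0099 and 0.0198 without aged replicates 1 and 3). On the cardiomyocyte marker scale Mpc2 (-0.088), Dld (-0.11), Pkm (-0.095) and Ppara (-0.054) turned negative. The cause of these changes was not tested. Of the 35 called list genes named, 580 of 663 refits kept the call and 83 lost it, with 0 turned signs among them. Whether the replicate numbers in the titles pair the samples is not stated. Same-numbered libraries had deviations from their age means that correlated at 0.041, -0.080 and 0.038 across genes, which cannot exclude a shared preparation. A replicate block gave 1002 higher and 1783 lower genes with 3 members higher and 2 lower, Pdp1 being lost. Depth beyond its relative size is unknown, so no counting interval is given.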

Other observations

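Among genes that share the hypoxia-inducible factor with Pdk1 as a known regulator, 3 of 13 tested were higher in aged ventricle and 1 lower, with a median log2 difference of 0.06. These counts, and those of the clock genes below, stand beside 9.32% higher and 17.1% lower over all tested genes. Bnip3, a mitophagy receptor, had 78.9, 78.8 and 84.9 FPKM in young ventricle and 126, 133 and 154 in aged ventricle (log2 0.75, adjusted p = 0.000374). The prolyl hydroxylase gene Egln1 rose 1.45-fold and the glucose transporter gene Slc2a1 1.54-fold (log2 0.53 and 0.54). Pgk1, a glycolytic enzyme, fell from 282, 289 and 301 FPKM to 225, 227 and 244 (log2 -0.32, adjusted p = 0.00435). Without aged replicates 1 and 2 the median of the list was 0.10.

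Of 15 clock genes 3 were higher and 2 lower, Per1 not among them since it was counted with the glucocorticoid targets, where it fell. The median log2 difference was 0.08, but -0.07 without young replicate 1, -0.01 without aged replicate 2 and 0.24 without young replicate 2. Npas2, a partner of the clock activator, had 4.87, 4.55 and 4.13 FPKM in young ventricle and 3.13, 2.7 and 2.98 in aged ventricle (log2 -0.49, SE 0.0963, adjusted p = 0.00714), and the repressor Bhlhe40 fell 1.45-fold, while Tef rose 1.30-fold and Bhlhe41 1.53-fold. Cry2, named after its values were seen, was the other higher gene. Without aged replicates 1 and 2 the median was 0.04, against -0.08 over all tested genes. The hour of tissue collection and the feeding state, which set Pdk4 and clock genes in heart, are not among the labels.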
